A study of Mus musculus with 12 samples.

Results

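The genes described here make, package, move and break down the inhibitory transmitter GABA, form its receptors and their anchors, set the neuronal chloride gradient, or form the related glycine receptor, together with 3 genes of inhibitory interneurons. The members were taken from a list of 32 gene symbols, and each was read from a probe set that names that gene alone, using the brightest over the 12 arrays where there was a choice. All 32 were measured, among 19938 genes in all. Gabrb2 had 3 such probe sets and each of the other 31 had 1.

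The study profiled total RNA from the hippocampus and the olfactory bulb of adult C57BL/6 mice on 1-colour expression arrays. It set 3 animals lacking RasGRF2 (GRF2 KO in the labels) against 3 wild-type animals, with both tissues of each animal on an array of its own. RasGRF2 is a guanine nucleotide exchange factor that switches on Ras and Rac proteins, and the series title places the study in adult neurogenesis of the dentate gyrus. The 4 groups were thus wild-type hippocampus, knockout hippocampus, wild-type bulb and knockout bulb, each of 3 arrays, and no animal received a treatment. The animals were kept in a conventional facility with exposure to common pathogens. The labels used here do not describe the Rasgrf2 allele, the sex of the animals or whether the genotypes were littermates. The dissections were whole tissues, so fewer cells of a type and less RNA per cell cannot be told apart in any value below.

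GABA is made from glutamate by the glutamate decarboxylases, loaded into vesicles by the vesicular transporter, cleared by plasma membrane transporters and broken down by GABA transaminase and succinic semialdehyde dehydrogenase. GABA-A receptors are pentameric chloride channels whose subunit mix sets their kinetics, drug sensitivity and place on the neuron, and GABA-B receptors are heterodimers coupled to G proteins. In the hippocampus, GABA is released by scattered interneurons onto pyramidal and granule cells. In the olfactory bulb, GABAergic granule and periglomerular cells are the most numerous neurons and are renewed in adult life.

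Promoter sequences are shown for the GABA synthesis and packaging genes and for the GABA-A subunit cluster of chromosome 5. In that cluster some neighbours passed the test of region and 1 did not. Other members with wide regional differences, among them Slc6a11, Gabra3 and Gabbr2, are not printed. Each printed sequence runs 5′ to 3′ on the gene's own strand, from 250 bases before to 50 after a transcript start. They come from RefSeq annotation of assembly GRCm38.p6, which held a window for 28 of the 32 members. Capitals mark either of 2 motifs: GGGCGG, the GC box (searched on both strands, so also CCGCCC), or TAATTA, a homeodomain core that reads the same on both strands. Gad1 (chr2:70561879-70562178, plus strand), Gad2 (chr2:22622077-22622376, plus) and Slc32a1 (chr2:158610508-158610807, plus) lie apart on chromosome 2. Gabrg1 (chr5:70842568-70842867, minus), Gabra2 (chr5:71095800-71096099, minus), Gabra4 (chr5:71658259-71658558, minus) and Gabrb1 (chr5:71657671-71657970, plus) lie in the same cluster on chromosome 5, with 1 other measured gene between Gabra2 and Gabra4.
Gad1: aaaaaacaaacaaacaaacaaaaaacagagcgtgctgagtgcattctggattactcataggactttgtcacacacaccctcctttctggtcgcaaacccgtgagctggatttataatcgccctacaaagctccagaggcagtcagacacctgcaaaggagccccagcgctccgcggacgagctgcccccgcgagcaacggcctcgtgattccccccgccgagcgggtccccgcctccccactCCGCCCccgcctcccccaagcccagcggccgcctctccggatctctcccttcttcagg
Gad2: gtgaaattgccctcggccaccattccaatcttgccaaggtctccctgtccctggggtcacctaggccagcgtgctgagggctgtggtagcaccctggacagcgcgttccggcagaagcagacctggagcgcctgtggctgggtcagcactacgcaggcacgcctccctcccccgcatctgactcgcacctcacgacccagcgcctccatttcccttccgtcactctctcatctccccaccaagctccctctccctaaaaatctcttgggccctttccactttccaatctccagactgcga
Slc32a1: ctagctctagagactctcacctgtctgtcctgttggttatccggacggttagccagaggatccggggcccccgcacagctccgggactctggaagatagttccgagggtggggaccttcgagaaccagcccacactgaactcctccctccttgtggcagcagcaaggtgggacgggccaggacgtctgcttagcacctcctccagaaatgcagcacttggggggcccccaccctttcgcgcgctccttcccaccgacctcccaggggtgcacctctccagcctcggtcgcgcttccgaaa
Gabrg1: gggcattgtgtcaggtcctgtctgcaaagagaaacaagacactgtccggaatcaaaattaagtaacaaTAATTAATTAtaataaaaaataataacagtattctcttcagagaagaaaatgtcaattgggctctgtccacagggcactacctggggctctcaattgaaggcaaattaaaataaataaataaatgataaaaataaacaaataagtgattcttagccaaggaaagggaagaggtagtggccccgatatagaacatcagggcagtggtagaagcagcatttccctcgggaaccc
Gabra2: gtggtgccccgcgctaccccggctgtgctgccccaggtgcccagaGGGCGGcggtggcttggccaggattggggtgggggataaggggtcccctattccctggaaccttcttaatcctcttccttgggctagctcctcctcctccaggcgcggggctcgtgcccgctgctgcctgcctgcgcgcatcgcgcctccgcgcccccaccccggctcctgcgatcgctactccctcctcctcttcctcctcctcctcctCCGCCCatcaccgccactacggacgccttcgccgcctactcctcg
Gabra4: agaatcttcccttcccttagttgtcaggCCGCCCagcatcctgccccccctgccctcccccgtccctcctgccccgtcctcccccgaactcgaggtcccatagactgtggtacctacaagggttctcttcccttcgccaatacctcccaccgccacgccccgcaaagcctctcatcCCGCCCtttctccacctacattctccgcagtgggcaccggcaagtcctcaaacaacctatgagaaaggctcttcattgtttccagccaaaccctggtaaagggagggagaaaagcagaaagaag
Gabrb1: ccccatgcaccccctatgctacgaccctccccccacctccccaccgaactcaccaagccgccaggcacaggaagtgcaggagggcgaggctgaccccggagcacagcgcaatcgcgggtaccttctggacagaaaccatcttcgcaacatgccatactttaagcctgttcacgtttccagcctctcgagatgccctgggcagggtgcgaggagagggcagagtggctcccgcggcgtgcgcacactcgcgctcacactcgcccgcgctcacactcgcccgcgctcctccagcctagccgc

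The GC box was found 1 time in the Gad1 window, 2 times each in those of Gabra2 and Gabra4, and not in those of Gad2, Slc32a1, Gabrb1 and Gabrg1. The Gabrg1 window held 2 overlapping TAATTA matches and 3 CG dinucleotides, against 25 CG in each of the Gabra2 and Gabrb1 windows and 12 in that of Gabra4. Another Gabrb1 window, not printed, held 9 CG, and the windows of Gabra3 held 0. A link between CG count and regional difference was not tested. Of the 36 windows of members, 19 (52.8%) held a GC box, 1 (2.78%) held TAATTA and the median CG count was 16.5. Of all 32851 windows in that annotation, 35.7% held a GC box, 5.29% held TAATTA and the median CG count was 7. The starts of Gabra4 and Gabrb1 are 387 bases apart on opposite strands. A match is a string of letters in the window and says nothing on whether a factor binds there.

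All values are log2 intensities. A difference of 1 is a 2-fold difference, and each gene's level rests on its own probes, so the order of levels between genes was not read. Where a within-array difference between a pair of genes is given, only its shift between groups is to be read. Groups were compared with limma across all 19938 genes, with Benjamini-Hochberg adjustment and a threshold of 0.05 on the adjusted p, and errors of group means are SD over 3 arrays from separate animals. The within-group SD of the members ran from 0.00982 to 0.351 with a median of 0.0716. The array medians were 6.82 to 6.89 in hippocampus and 6.93 to 6.96 in bulb. A total of 23 members lay above the median of their own array on all 12 arrays. Gabra6, Gabre, Gabrq, Gabrr2 and Glra3 lay below it on all 12, and Glra1, Glra2, Pvalb and Lhx6 lay above it on 2, 6, 6 and 9 arrays.

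The targeted gene was read first. Rasgrf2 stood at 9.32, 9.14 and 9.18 in wild-type hippocampus and at 8.64, 8.76 and 8.49 in knockout hippocampus. In bulb it stood at 9.52, 9.52 and 9.47 in wild type and at 9.33, 9.35 and 9.43 in knockout. Knockout arrays lay below every wild-type array in both tissues, by 0.58 in hippocampus (limma adjusted p = 0.00197) and by a smaller amount in bulb, -0.14, that missed the threshold (adjusted p = 0.532). The signal of this probe set remained well above the array median in the knockout, and no label places its probes relative to the altered part of the gene. The tissue labels were checked against markers of glutamatergic neurons: Neurod6, of hippocampal pyramidal cells, was 4.20 higher in wild-type hippocampus, while Eomes and Cdhr1, of bulb mitral and tufted cells, differed there by -4.08 and -3.98.

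**Figure D1:**
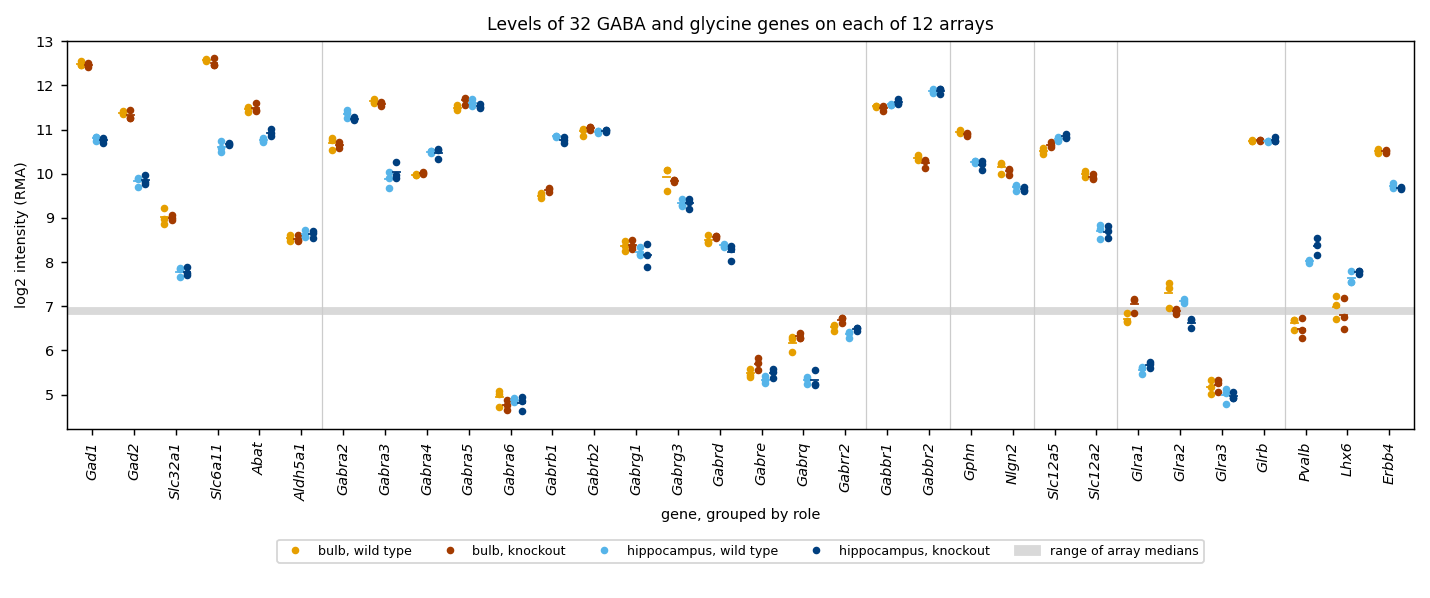
Levels of the 32 genes on each of the 12 arrays, in log2 intensity, grouped by role. Points are arrays, short bars are group means of 3 arrays, colours give tissue and genotype, and the grey band spans the array medians of 6.82 to 6.96. Gad1, Gad2, Slc32a1, Slc6a11 and Gabra3 stand higher in bulb and Gabrb1, Gabbr2 and Pvalb higher in hippocampus, while the genotypes of a tissue lie close together.

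The comparison of hippocampus with olfactory bulb describes how the inhibitory machinery differs between the 2 regions. Of the 6 genes of GABA synthesis, transport and breakdown, 5 were higher in bulb, the GABA-A subunits that passed the test went both ways, and the GABA-B subunit Gabbr2 was higher in hippocampus. In wild type, 7 of the 32 members were higher in hippocampus (17.5% of all genes were) and 13 were higher in bulb (23.4% of all genes). In the knockout, 7 were higher in hippocampus (19.2% of all genes) and 15 in bulb (19.9%). The 7 hippocampus-high genes were called in both genotypes, a share of 21.9% of members against 14.3% of all genes. The 13 bulb-high genes were also called in both genotypes, 40.6% of members against 16.3% of all genes. The median size of the tissue difference, regardless of sign, was 0.62 for members in wild type and 0.181 for all genes, and in the knockout 0.54 and 0.170. A total of 10 members, or 31.2%, passed the test with a difference of more than 2-fold in each genotype, against 4.78% of all genes in wild type and 4.81% in the knockout. Centring each array on its median moved the median wild-type tissue difference of all genes from -0.07 to 0.04, and turned the split of all genes from 3480 higher and 4668 lower in hippocampus to 4911 and 2888. None of the members called in either genotype changed direction under that scaling, though Gabrr2 lost its knockout call.

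**Figure D2:**
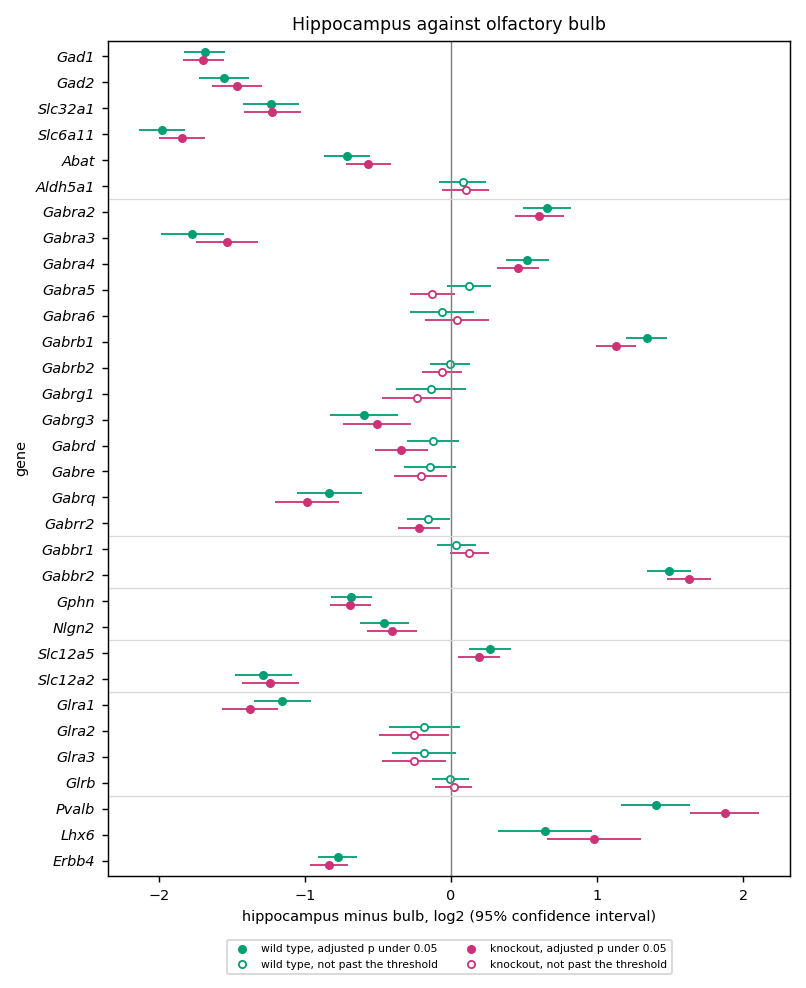
Difference between hippocampus and bulb for each member, in log2, with 95% confidence intervals from limma, in wild type (green) and knockout (magenta). Filled points passed an adjusted p of 0.05, and positive values are higher in hippocampus. The largest bulb excess is that of Slc6a11 (-1.98 in wild type) and the largest hippocampal excess in wild type is that of Gabbr2 (1.49).

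Of the 6 genes of GABA synthesis, packaging, uptake and breakdown, 5 were higher in bulb in both genotypes and Aldh5a1 did not pass the test. Their median tissue difference was -1.39 in wild type and -1.34 in the knockout, against -0.07 and 0.01 over all genes. Gad1, the decarboxylase isoform that supplies most basal GABA, read 10.73, 10.84 and 10.83 in wild-type hippocampus and 12.47, 12.45 and 12.54 in wild-type bulb. In knockout animals it read 10.76, 10.81 and 10.70 in hippocampus and 12.50, 12.41 and 12.45 in bulb. Every bulb array lay above every hippocampal array, and the wild-type difference was 3.22-fold (-1.69, SE 0.0653, limma adjusted p = 2.77e-11), with 3.24-fold in the knockout.

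Gad2, the isoform concentrated at axon terminals, read 9.88, 9.71 and 9.91 in wild-type hippocampus and 11.41, 11.38 and 11.36 in wild-type bulb. Knockout values were 9.81, 9.98 and 9.77 in hippocampus and 11.44, 11.27 and 11.25 in bulb. The tissues did not overlap, and the bulb was 2.93-fold higher in wild type (-1.55, SE 0.0804, limma adjusted p = 6.16e-10) and 2.76-fold higher in the knockout. The within-array difference between Gad1 and Gad2 was 0.97 ± 0.15 in wild-type hippocampus and 1.10 ± 0.064 in wild-type bulb, a shift of -0.13 between tissues that was not tested. In knockout animals this difference was 0.90 ± 0.060 in hippocampus and 1.14 ± 0.067 in bulb.

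Slc32a1 encodes the vesicular transporter that loads GABA and glycine into synaptic vesicles. It read 7.84, 7.86 and 7.66 in wild-type hippocampus, 7.71, 7.88 and 7.75 in knockout hippocampus, 8.98, 9.22 and 8.86 in wild-type bulb and 9.0, 8.96 and 9.06 in knockout bulb. No hippocampal array reached the bulb range, and the excess in bulb was 2.35-fold in wild type (-1.23, SE 0.091, limma adjusted p = 3.55e-08) and 2.34-fold in the knockout.

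Slc6a11 encodes GAT-3, the GABA transporter found mainly on astrocytes. Its values were 10.58, 10.48 and 10.74 in wild-type hippocampus and 12.56, 12.58 and 12.60 in wild-type bulb, with 10.68, 10.69 and 10.65 and then 12.61, 12.46 and 12.47 in the corresponding knockout groups. This was the widest tissue difference among the 32 genes in wild type, 3.94-fold (-1.98, SE 0.0739, limma adjusted p = 1.94e-11), and it was 3.59-fold in the knockout. Of 10 astrocyte marker genes, 3 were higher in hippocampus and 2 in bulb in wild type, and 4 and 2 in the knockout, with Slc1a2 at 0.49 and Slc1a3 at -0.53 in wild type. Their mean level was 9.76 to 9.86 in wild-type hippocampus, 9.69 to 9.79 in wild-type bulb, 9.80 to 9.88 in knockout hippocampus and 9.67 to 9.71 in knockout bulb, and its part in the Slc6a11 values was not tested.

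Abat, the GABA transaminase that begins GABA breakdown, read 10.72, 10.75 and 10.80 in wild-type hippocampus and 11.40, 11.49 and 11.52 in wild-type bulb. In the knockout it read 10.85, 11.01 and 10.91 in hippocampus and 11.60, 11.41 and 11.45 in bulb. It was 1.64-fold higher in bulb in wild type (-0.71, limma adjusted p = 1.29e-06) and 1.48-fold in the knockout. Aldh5a1, the dehydrogenase that completes GABA breakdown, lay between 8.48 and 8.73 on all 12 arrays, and its tissue differences were 0.08 in wild type (adjusted p = 0.431) and 0.10 in the knockout (adjusted p = 0.335).

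Among the 13 GABA-A receptor subunits, 3 were higher in hippocampus and 3 in bulb in wild type, 23.1% each way, near the shares of all genes given above. In the knockout, 3 were higher in hippocampus (23.1%) and 5 in bulb (38.5%). The medians of the 13, -0.12 and -0.21, lay near 0, with members on both sides. The alpha subunits carry the agonist and benzodiazepine sites together with their beta and gamma neighbours. Gabra3, the alpha3 subunit, had the widest regional difference of the family. It read 9.68, 9.90 and 10.04 in wild-type hippocampus, 9.91, 9.96 and 10.27 in knockout hippocampus, 11.68, 11.63 and 11.61 in wild-type bulb and 11.59, 11.54 and 11.62 in knockout bulb. The hippocampal arrays were the more scattered, yet none came near the bulb values, and the bulb excess was 3.41-fold in wild type (-1.77, SE 0.0999, limma adjusted p = 1.61e-09) and 2.89-fold in the knockout.

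Gabra2 and Gabra4 ran the other way. Gabra2, a subunit of synaptic receptors including those at the axon initial segment, read 11.27, 11.37 and 11.44 in wild-type hippocampus and 10.76, 10.80 and 10.54 in wild-type bulb. Its knockout values were 11.24, 11.28 and 11.22 in hippocampus and 10.71, 10.59 and 10.64 in bulb. It was 1.58-fold higher in hippocampus in wild type (0.66, SE 0.0779, limma adjusted p = 6.02e-06) and 1.52-fold in the knockout. Gabra4, the alpha4 subunit that pairs with delta in extrasynaptic receptors, read 10.51, 10.47 and 10.52 in wild-type hippocampus and 9.98, 9.96 and 10 in wild-type bulb. With 10.55, 10.53 and 10.33 in knockout hippocampus and 10.02, 10.03 and 9.99 in knockout bulb, it was 1.44-fold higher in hippocampus in wild type (0.52, limma adjusted p = 1.7e-05) and 1.37-fold in the knockout.

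Gabra5 and Gabra6 did not pass the test between tissues. Gabra5, the alpha5 subunit of extrasynaptic receptors of pyramidal cells, lay between 11.44 and 11.72 on all 12 arrays, with tissue differences of 0.12 in wild type (adjusted p = 0.19) and -0.13 in the knockout (adjusted p = 0.176). In wild type its call changed with scaling, since centring each array on its median gave 0.23 (limma adjusted p = 0.019). Gabra6, known from cerebellar granule cells, lay between 4.63 and 5.09, below the median of every array, with differences of -0.06 in wild type (adjusted p = 0.653) and 0.04 in the knockout (adjusted p = 0.782). The within-array difference of Gabra2 minus Gabra5 went from -0.25 ± 0.14 in wild-type hippocampus to -0.79 ± 0.11 in wild-type bulb, and from -0.28 ± 0.063 to -1.01 ± 0.062 in the knockout. That of Gabra2 minus Gabra3, a pair chosen after its values were seen, went from 1.49 ± 0.095 in wild-type hippocampus to -0.94 ± 0.12 in wild-type bulb. The corresponding knockout values were 1.20 ± 0.22 and -0.94 ± 0.051, so the regional shift of this pair was 2.43 in wild type and 2.14 in the knockout.

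Of the beta subunits, which every classical GABA-A receptor needs, Gabrb1 differed between tissues and Gabrb2 did not pass the test. Gabrb1 read 10.84, 10.86 and 10.85 in wild-type hippocampus and 9.45, 9.51 and 9.56 in wild-type bulb. In knockout animals it read 10.76, 10.84 and 10.69 in hippocampus and 9.67, 9.65 and 9.58 in bulb. The tissues were far apart in both genotypes, 2.53-fold in wild type (1.34, SE 0.0649, limma adjusted p = 3.06e-10) and 2.19-fold in the knockout. Gabrb2 lay between 10.86 and 11.06 on all arrays, with tissue differences of -0.01 in wild type (adjusted p = 0.952) and -0.06 in the knockout (adjusted p = 0.502). Its other probe sets gave 0.18 and 0.19 in wild type, also not past the threshold.

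The gamma subunits place receptors at synapses and confer benzodiazepine binding. Gabrg3 read 9.43, 9.28 and 9.29 in wild-type hippocampus against 10.08, 10.09 and 9.61 in wild-type bulb, and 9.21, 9.37 and 9.43 against 9.86, 9.81 and 9.85 in the knockout. It was 1.51-fold higher in bulb in wild type (-0.60, SE 0.108, limma adjusted p = 0.000377) and 1.42-fold in the knockout, with 1 wild-type bulb array lower than the other bulb arrays but above every hippocampal one. Gabrg1 lay between 7.89 and 8.50 with overlapping tissues, at -0.14 in wild type (adjusted p = 0.356) and -0.23 in the knockout (adjusted p = 0.118).

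The remaining GABA-A members are subunits of restricted expression. Gabrd, the delta subunit of tonic, neurosteroid-sensitive receptors, read 8.35, 8.37 and 8.42 in wild-type hippocampus and 8.46, 8.44 and 8.61 in wild-type bulb, a difference of -0.12 that missed the threshold (adjusted p = 0.269). In the knockout it read 8.30, 8.37 and 8.03 against 8.59, 8.59 and 8.55, and was 1.27-fold higher in bulb (-0.34, SE 0.0841, limma adjusted p = 0.00437). The tissue difference itself did not differ between the genotypes past the threshold (-0.22, limma adjusted p = 0.52). Gabrq, the theta subunit, read 5.36, 5.41 and 5.25 in wild-type hippocampus and 5.96, 6.31 and 6.26 in wild-type bulb, and in the knockout 5.21, 5.25 and 5.55 against 6.28, 6.39 and 6.29. It was higher in bulb by 1.78-fold in wild type (-0.83, limma adjusted p = 9.77e-06) and 1.98-fold in the knockout, although all its values lay below the array median, where RMA compresses differences.

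Gabrr2, the rho2 subunit best known from the retina, was 1.16-fold higher in bulb in the knockout (-0.22, limma adjusted p = 0.0178), and in wild type differed by -0.15 (adjusted p = 0.0845). The knockout call was lost with the tissues of each animal paired by code as a block (adjusted p = 0.0519) but not by title number (adjusted p = 0.0455). It was also lost after median centring (-0.15, adjusted p = 0.0885), repeated quantile normalization (0.0573) and trend and robust moderation (0.0534), and without either of the knockout bulb arrays 5 (0.0626) and 6 (0.0658) or knockout hippocampus array 5 (0.0544). Gabre, the epsilon subunit, lay between 5.26 and 5.82 and differed between tissues by -0.14 in wild type (adjusted p = 0.187) and -0.21 in the knockout (adjusted p = 0.061).

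The GABA-A subunit genes lie in clusters, and calls were mixed within 3 of the 4 clusters measured here. Differences between neighbours were not themselves tested. On chromosome 5, in the order Gabrg1, Gabra2, Gabra4 and Gabrb1, the last 3 were higher in hippocampus in both genotypes and Gabrg1 did not pass the test in either. On chromosome 7, Gabrg3 was higher in bulb and Gabra5 did not pass the test. On chromosome 11, neither Gabra6 nor Gabrb2 passed it. On chromosome X, in the order Gabre, Gabra3 and Gabrq, the last 2 were higher in bulb and Gabre was not past the threshold. The widest hippocampal excess on chromosome 5 was that of Gabrb1, whose start lies 387 bases from that of Gabra4 in the windows printed above.

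**Figure D3:**
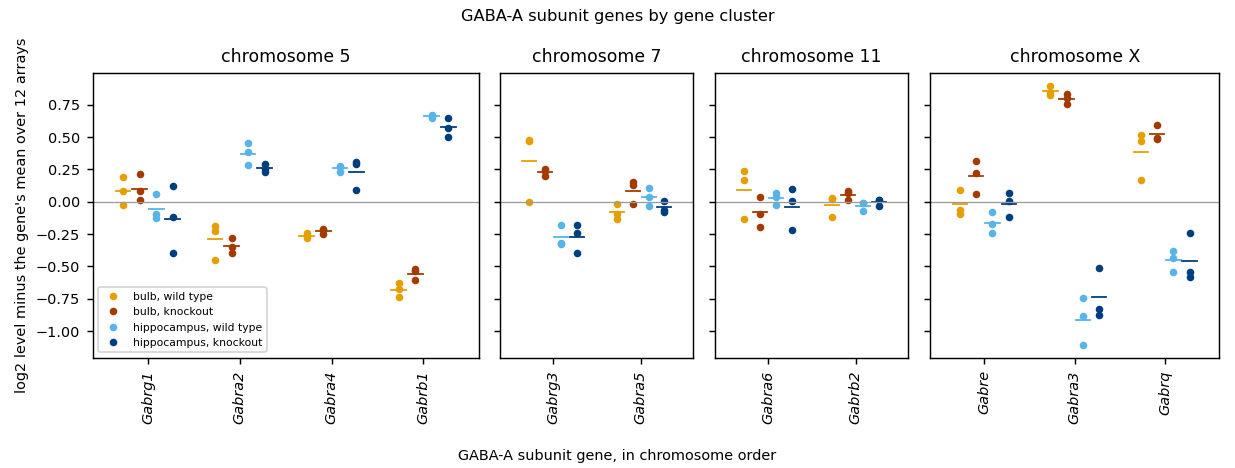
Levels of 11 GABA-A subunit genes as log2 deviations from each gene's mean over the 12 arrays, placed in their chromosome order. Points are arrays and bars are group means of 3 arrays. On chromosome 5, hippocampal arrays stand above bulb arrays for Gabra2, Gabra4 and Gabrb1, and on chromosome X they stand below them for Gabra3 and Gabrq.

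GABA-B receptors need both of their subunits, Gabbr1 to bind GABA and Gabbr2 to reach the surface and couple to G proteins. Gabbr2 read 11.92, 11.83 and 11.84 in wild-type hippocampus and 10.38, 10.42 and 10.30 in wild-type bulb, with 11.80, 11.91 and 11.91 and then 10.29, 10.31 and 10.13 in the knockout. It was 2.82-fold higher in hippocampus in wild type (1.49, SE 0.0709, limma adjusted p = 2.41e-10) and 3.09-fold in the knockout. Gabbr1 lay between 11.42 and 11.68 on all arrays, with tissue differences of 0.04 (adjusted p = 0.674) and 0.13 (adjusted p = 0.132).

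Both genes of the inhibitory synapse scaffold were higher in bulb. Gphn encodes gephyrin, which anchors glycine receptors and many GABA-A receptors, and read 10.28, 10.25 and 10.29 in wild-type hippocampus and 10.91, 10.95 and 11 in wild-type bulb. Its knockout values were 10.22, 10.29 and 10.09 in hippocampus and 10.90, 10.92 and 10.86 in bulb, and the bulb excess was 1.6-fold in wild type (-0.68, limma adjusted p = 7.7e-07) and 1.61-fold in the knockout. Nlgn2, the neuroligin of inhibitory synapses, was 1.37-fold higher in bulb in wild type (-0.46, limma adjusted p = 0.000245) and 1.32-fold in the knockout.

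The chloride cotransporters set whether GABA-A receptors pass chloride inward or outward. Slc12a2 encodes the importer NKCC1 and Slc12a5 the neuronal exporter KCC2. Slc12a2 read 8.84, 8.52 and 8.76 in wild-type hippocampus and 9.92, 10.02 and 10.05 in wild-type bulb, with 8.54, 8.82 and 8.71 and then 9.99, 9.88 and 9.90 in the knockout. No hippocampal array came within the bulb range, and the bulb was 2.44-fold higher in wild type (-1.29, SE 0.0914, limma adjusted p = 2.3e-08) and 2.36-fold in the knockout.

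Slc12a5 ran in the opposite direction with a smaller difference. It read 10.74, 10.84 and 10.77 in wild-type hippocampus and 10.45, 10.59 and 10.51 in wild-type bulb, 1.2-fold higher in hippocampus (0.27, SE 0.0671, limma adjusted p = 0.00485). In the knockout it read 10.83, 10.90 and 10.80 against 10.72, 10.60 and 10.64, 1.14-fold higher in hippocampus (0.19, limma adjusted p = 0.0339). That knockout call was lost with the replicate block that pairs the tissues of an animal (adjusted p = 0.0848 by animal code and 0.0604 by animal number) and in a fit of only the knockout arrays (adjusted p = 0.0595). Repeated quantile normalization ended the call as well (0.15, limma adjusted p = 0.0778). The call was also lost without knockout bulb array 5 (0.117) or 6 (0.0903), or knockout hippocampus array 4 (0.0646) or 5 (0.101). The within-array difference of Slc12a5 minus Slc12a2 was 2.07 ± 0.22 in wild-type hippocampus, with arrays from 1.90 to 2.32, and 0.52 ± 0.052 in wild-type bulb, with arrays from 0.47 to 0.57. It was 2.16 ± 0.12 in knockout hippocampus and 0.73 ± 0.011 in knockout bulb, so this difference shifted between tissues by 1.55 in wild type and 1.43 in the knockout.

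Glycine receptors are chloride channels of the same family, best known from the spinal cord and brainstem, and Glrb joins each alpha subunit to gephyrin. Glra1 read 5.61, 5.46 and 5.63 in wild-type hippocampus and 6.67, 6.85 and 6.65 in wild-type bulb, with 5.60, 5.70 and 5.73 and then 6.85, 7.17 and 7.14 in the knockout. It was higher in bulb by 2.23-fold in wild type (-1.16, limma adjusted p = 7.29e-08) and 2.6-fold in the knockout, from hippocampal values below every array median. Glra2, the alpha2 subunit prominent in immature neurons, had tissue differences of -0.18 (adjusted p = 0.215) and -0.25 (adjusted p = 0.0905), and its wild-type call appeared without wild-type bulb array 3 (-0.35, limma adjusted p = 0.0037). Glra3, the alpha3 subunit, lay between 4.80 and 5.34, below the median of every array, with -0.19 in wild type (adjusted p = 0.168) and -0.25 in the knockout (adjusted p = 0.0647). Glrb stayed between 10.72 and 10.82 on all 12 arrays, and its tissue differences were below 0.03 in size (0.02 in the knockout, adjusted p = 0.849, and 0.961 in wild type).

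The 3 interneuron genes differed between tissues in both genotypes. Pvalb encodes parvalbumin, the calcium buffer of fast-spiking basket cells, and read 7.97, 8.02 and 8.05 in wild-type hippocampus against 6.47, 6.69 and 6.68 in wild-type bulb. In the knockout it read 8.17, 8.38 and 8.54 against 6.46, 6.73 and 6.29. It was higher in hippocampus by 2.64-fold in wild type (1.40, SE 0.111, limma adjusted p = 8.24e-08) and 3.66-fold in the knockout. Lhx6, the homeodomain factor of interneurons born in the medial ganglionic eminence, read 7.56, 7.79 and 7.54 in wild-type hippocampus and 6.71, 7.02 and 7.23 in wild-type bulb. In the knockout it read 7.80, 7.74 and 7.80 against 7.18, 6.75 and 6.48, and its hippocampal excess was 1.56-fold in wild type (0.64, SE 0.15, limma adjusted p = 0.00281) and 1.97-fold in the knockout. Erbb4, the neuregulin receptor of interneurons and of migrating bulb neuroblasts, was 1.71-fold higher in bulb in wild type (-0.78, limma adjusted p = 8.79e-08) and 1.79-fold in the knockout.

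Other genes of the same pathways were read from lists of 15 kinds, with 175 of 193 entries measured. The counts of these lists are to be read beside the shares of all genes. In wild type 17.5% of all genes were higher in hippocampus and 23.4% in bulb, and in the knockout 19.2% and 19.9%. No list was tested as a set. Forebrain GABA lineage factors, transcription factors of the ganglionic eminences and their bulb descendants, were higher in bulb in 13 of 14 genes in each genotype, with medians of -2.26 in wild type and -2.13 in the knockout, led by Meis2 (-3.70 in wild type) and Dlx1 (-3.23). Their mean level was 7.36 to 7.48 in wild-type hippocampus and 9.44 to 9.59 in wild-type bulb, and its part in the differences of the GABA genes was not tested. Glutamatergic marker genes, which include markers of hippocampal pyramidal cells and of bulb mitral and tufted cells, went both ways. Of 10, 5 were higher in hippocampus and 4 in bulb in wild type, and 6 and 4 in the knockout. Their median wild-type difference was 0.43, while their mean levels were 8.65 to 8.76 in wild-type hippocampus and 9.01 to 9.10 in wild-type bulb. Cerebellar and brainstem markers, chosen for regions other than the dissected ones, had mean levels of 6.50 to 6.59 in wild-type hippocampus and 7.26 to 7.34 in wild-type bulb. In both genotypes 4 of the 10 were higher in bulb (Cbln1 at -2.49, Calb2 at -2.38, Il20ra at -1.48 and Car8 at -0.38 in wild type). Calb2 is also a gene of bulb periglomerular cells, so its value cannot be read as signal from those other regions. Of the 10, Cbln3, Pcp2, Fat2, Il20ra and Slc6a5 lay below the median of every array, and the part of these genes in the tissue differences was not tested.

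Of 3 other GABA-A subunits, all below the median of every array, 1 was higher in bulb in wild type and 0 in the knockout. Of 5 other GABA and glycine transporters, 3 were higher in bulb in wild type and 4 in the knockout, with Slc6a9, the glial glycine transporter GlyT1, at -1.96 in wild type (limma adjusted p = 9.95e-11). Of 8 genes of glutamine and glutamate supply, 4 were higher in bulb in each genotype and 0 in hippocampus, with Slc38a3 at -1.20 and Slc38a1 at -1.10 in wild type, both glutamine carriers. Among 25 partners in receptor trafficking and the inhibitory scaffold, 7 were higher in hippocampus and 9 in bulb in wild type, with 6 and 10 in the knockout, and the widest were Insyn2b at -2.80 and Insyn2a at -1.45. Of 12 GABA-B partners and effectors, 4 were higher in hippocampus and 3 in bulb in wild type, and 3 and 2 in the knockout. The knockout counts were near the shares of all genes. Kctd16, an auxiliary subunit that binds Gabbr2, was higher in hippocampus by 1.71 in wild type and 1.76 in the knockout, the same direction as Gabbr2. Others of this list went the other way, with Gnai1 and Kcnj3 higher in bulb in both genotypes. Kctd12 had means of 9.52 in wild-type hippocampus and 9.84 in wild-type bulb, and 9.61 and 9.77 in the knockout.

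Of 12 regulators of chloride transport and other chloride genes, 1 was higher in hippocampus and 7 in bulb in wild type, and 2 and 4 in the knockout. Neto2, an auxiliary protein that binds KCC2, was at -1.0 in wild type, and Stk39, the kinase SPAK that activates NKCC1, was at -0.72, so Stk39 was higher in the tissue where Slc12a2 was higher. Among 30 other interneuron genes, 9 were higher in hippocampus and 10 in bulb in wild type, and 14 and 9 in the knockout. Calb2, of bulb periglomerular cells, was at -2.38 and Reln at -1.71, while Prox1, which also marks dentate granule cells, was at 3.31 and Calb1 at 2.72.

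The comparison of genotypes asks whether loss of RasGRF2 altered these genes in either tissue. None of the 32 members passed the threshold in hippocampus, where 0.256% of all genes did, or in bulb, where 0.411% did. No member passed the test of a difference in knockout effect between tissues (0.0150% of all genes did). At an unadjusted limma p under 0.05 there were 3 members in hippocampus (9.38%, against 8.91% of all genes), 5 in bulb (15.6% against 11.3%) and 3 for the difference between tissues (9.38% against 10.7%). The median knockout effect was 0.00057 in hippocampus, with 16 members above 0 and 16 below, and -0.013 in bulb, with 15 above and 17 below. For 30 of the members in hippocampus and 29 in bulb, the 95% confidence interval of the difference lay within 0.5 on either side of 0. Those that reached past 0.5 were Glra2 and Pvalb in hippocampus and Glra1, Glra2 and Lhx6 in bulb. The median standard error was 0.0785.

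**Figure D4:**
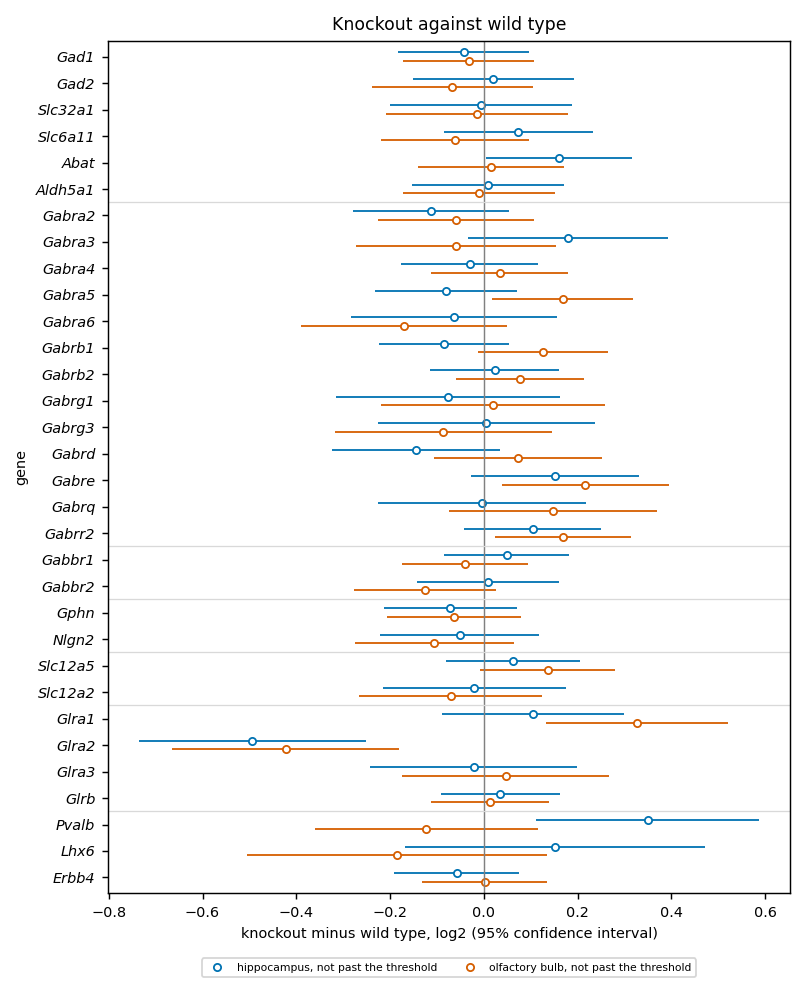
Difference between knockout and wild type for each member, in log2, with 95% confidence intervals from limma, in hippocampus (blue) and bulb (orange). Open points did not pass an adjusted p of 0.05, which holds for all 32 genes in both tissues. Glra2 has the widest negative difference in both tissues (-0.49 and -0.42).

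The genes of GABA synthesis and packaging did not pass the test. The knockout effect on Gad1 was -0.04 in hippocampus and -0.03 in bulb, on Gad2 0.02 and -0.07, and on Slc32a1 -0.01 and -0.02. Abat did not pass it either. Of the 6 metabolic genes, only Abat had all 3 knockout hippocampal arrays (10.85 to 11.01) on 1 side of the wild-type ones (10.72 to 10.80). Its difference of 0.16 did not survive adjustment (limma adjusted p = 0.551). In bulb the Abat arrays of the genotypes overlapped.

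In hippocampus the knockout and wild-type arrays did not overlap for 4 members, or 12.5%, against 13.1% of all genes. In bulb this held for 6 members, or 18.8%, against 17.1% of all genes. These shares are near those of all genes. The 4 were Abat, Gabrr2, Pvalb and Glra2, and the 6 were Gabra5, Gabrb1, Gabrr2, Slc12a5, Glra1 and Glra2. Gabrr2, higher in the knockout, and Glra2, lower in it, were separated in both tissues in the same direction, which held for 2 members, or 6.25%, and for 1.79% of all genes.

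Glra2 had the smallest p of the 32 genes in both tissues. In hippocampus it read 7.12, 7.07 and 7.17 in wild type and 6.71, 6.68 and 6.50 in the knockout. In bulb it read 7.42, 7.52 and 6.97 in wild type and 6.93, 6.82 and 6.90 in the knockout. All knockout arrays lay below all wild-type arrays of their tissue, with wild-type bulb array 3 close to the knockout values. The differences were -0.49 in hippocampus (1.41-fold, 95% confidence interval -0.74 to -0.25, limma adjusted p = 0.124) and -0.42 in bulb (1.34-fold, -0.66 to -0.18, adjusted p = 0.179). Neither passed the threshold, and the effect did not differ between tissues beyond its error (-0.07, adjusted p = 0.884). Without wild-type bulb array 3 the bulb difference was -0.59 and passed it (limma adjusted p = 0.00412), and with array weights the hippocampal difference was -0.44 and passed it (adjusted p = 0.0246). Over all alternatives the adjusted p ran from 0.0246 to 0.509 in hippocampus and from 0.00412 to 0.432 in bulb.

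Gabrr2 had smaller and less certain differences, at 6.40, 6.42 and 6.29 in wild-type hippocampus and 6.50, 6.43 and 6.50 in knockout hippocampus. In bulb it read 6.44, 6.56 and 6.57 in wild type and 6.62, 6.73 and 6.73 in the knockout. The groups only just failed to overlap in hippocampus, where the difference was 0.10 (limma adjusted p = 0.669), and in bulb it was 0.17 (adjusted p = 0.389).

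Glra1 was separated by genotype in bulb, at 6.67, 6.85 and 6.65 in wild type and 6.85, 7.17 and 7.14 in the knockout, with the highest wild-type and lowest knockout arrays equal to 2 decimals. The difference was 0.33 (95% confidence interval 0.13 to 0.52, limma adjusted p = 0.206), and in hippocampus it was 0.11 (adjusted p = 0.741). Gabra5 read 11.55, 11.48 and 11.44 in wild-type bulb and 11.70, 11.55 and 11.72 in knockout bulb, again with touching arrays, a difference of 0.17 (limma adjusted p = 0.398). In hippocampus Gabra5 differed by -0.08 (adjusted p = 0.748), and the difference between the tissues' knockout effects was -0.25 (limma adjusted p = 0.419).

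Pvalb read 7.97, 8.02 and 8.05 in wild-type hippocampus and 8.17, 8.38 and 8.54 in knockout hippocampus. The knockout arrays were all higher and more spread, and the difference was 0.35 (95% confidence interval 0.11 to 0.59, limma adjusted p = 0.388). In bulb it was -0.12 (adjusted p = 0.699), and the difference between tissues was 0.47 (limma adjusted p = 0.377), so none of these passed the threshold. In the same knockout hippocampal arrays the mean level of 9 oligodendrocyte marker genes was 8.88 to 9.27, against 8.78 to 8.97 in wild type, and the knockout differences of all 9 were above 0, with a median of 0.26 and 0 past the threshold. Their part in the Pvalb values was not tested.

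**Figure D5:**
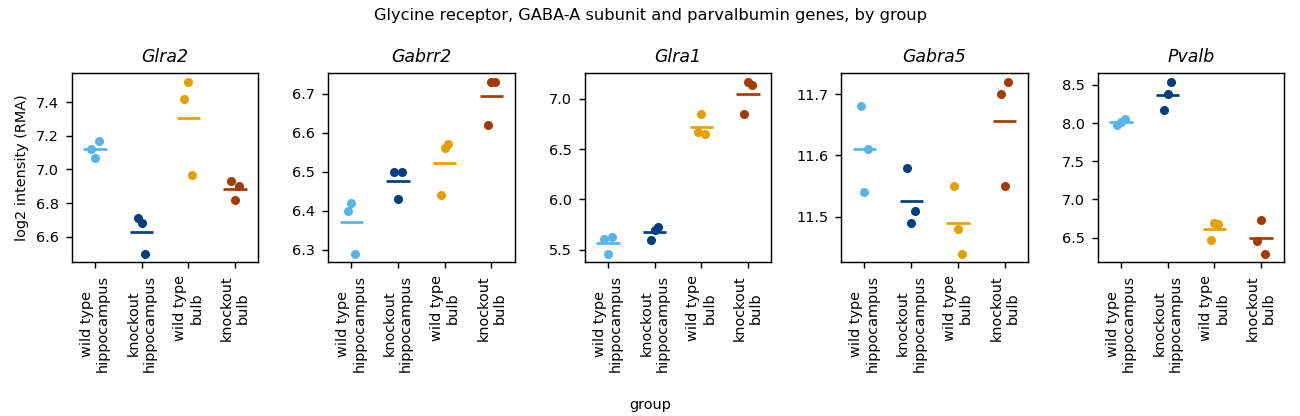
Log2 intensity of Glra2, Gabrr2, Glra1, Gabra5 and Pvalb on each array, by group, with bars at the means of 3 arrays. The genes were chosen after their values were seen, and each panel has its own axis. Knockout arrays lie below wild-type arrays for Glra2 in both tissues, and above them for Gabrr2 in both tissues.

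The remaining separated genes had differences under 0.2. In bulb, Gabrb1 differed by 0.13 (limma adjusted p = 0.487) and Slc12a5 by 0.14 (adjusted p = 0.47). The Gabrb1 knockout effect differed between tissues by -0.21 (limma adjusted p = 0.451). Gabre, whose arrays overlapped in bulb, differed there by 0.22 (limma adjusted p = 0.366). The bulb arrays of Lhx6 were scattered, from 6.71 to 7.23 in wild type and from 6.48 to 7.18 in the knockout.

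Among the genes of the other lists, Htr3a and Dlx5 passed the threshold by genotype. Htr3a, the serotonin receptor of a class of interneurons, rose in the knockout by 0.65 in hippocampus (limma adjusted p = 0.00197) and 0.90 in bulb (adjusted p = 0.000108). Dlx5, a lineage factor of bulb interneurons, rose by 0.84 in bulb (adjusted p = 0.00117), with 0.16 in hippocampus. No other gene of the pathway or marker lists passed it in either tissue.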

How the data were processed

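Total RNA extracted with Trizol was fragmented, labelled with biotin and hybridised to 12 arrays, per the labels' protocols. The authors deposited log2 intensities, made with RMA and the oligo package per the submitters' processing notes; RMA corrects background, quantile-normalizes and summarises probes, and compresses differences near background. No genome build of the probe annotation is given in the sources used here. Of 35556 probe sets, 21789 carried 1 gene symbol, which left 19938 genes with the brightest probe set per gene. No gene was filtered out.

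The 4 group means were fitted over all 12 arrays with limma 3.58.1 (lmFit, eBayes) in R 4.3.3, with Benjamini-Hochberg adjustment over the 19938 genes at 0.05. P-values rest on the spread between arrays of separate animals. Precision is limited by the number of arrays. All 32 members are named, with the genes of other lists that passed by genotype or led by tissue. The members and lists were chosen with earlier results of these data known. The code was tested on simulated data, where it recovered 90% of 0.5 log2 changes in hippocampus by genotype and 84.7% in bulb, and 45% for the difference of the genotype effect between tissues. The simulation had independent normal noise, and some of its changes were of 1 log2. It changed more genes than the 51 in hippocampus and 82 in bulb called by genotype in the data, which eases the adjusted threshold. These shares are thus a check of the code and not the power for the members.

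Both tissues of an animal share a code in the labels. For a pair of wild-type animals, code and title number join the tissues differently, so the replicate block was run both ways. By code, deviations of an animal's tissues from their group means correlated at -0.255 to 0.116 across genes. Alternatives covered the probe set rule, array weights, moderation, scaling, a filter on dim genes, the block and leaving out each array. Promoter windows were read from RefSeq (GRCm38.p6).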

Additional observations from a re-analysis of the deposited data

How the results depend on the processing

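With the replicate block that pairs the tissues of an animal, 20 members passed between tissues in wild type by either pairing, and in the knockout 20 by animal code and 21 by title number, against 20 and 22 without it. The block ended the knockout call of Slc12a5 by either pairing and that of Gabrr2 by animal code only, and changed no other call of a member. The random animal block left both genotype counts at 0. With array weights, 1 member (Glra2) passed between genotypes in hippocampus. Leaving out each array in turn gave 20 to 21 members in wild type and 20 to 23 in the knockout between tissues, 0 between genotypes in hippocampus, 0 to 1 in bulb, where 1 (Glra2) passed without wild-type bulb array 3, and 0 for the difference between tissues. Over every alternative, the tissue counts ran from 19 to 21 in wild type and from 20 to 24 in the knockout. All 20 wild-type tissue calls passed under every alternative in which the gene was tested, as did 20 of the 22 knockout calls. No called value of a member changed sign. Calls that appeared under 1 or more alternatives were those of Gabra5 and Glra2 between tissues in wild type, and of Gabrg1, Gabre, Gabbr1, Glra2 and Glra3 in the knockout.

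Scaling moved the split of all genes between tissues, from 42.7% of calls higher in wild-type hippocampus to 63.0% after median centring and 52.4% after repeated quantile normalization, and in the knockout from 49.2% to 62.8% and 59.1%. The filter on dim genes left 27 of the 32 members. With 3 arrays a group, the median standard error was 0.111 for the difference between the tissues' knockout effects and 0.0785 for the effect in a tissue.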

Other observations

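No marker gene of other cell types passed the limma threshold between genotypes in either tissue, but some lists lay largely to one side of 0. All 9 endothelial genes were below 0 in knockout hippocampus (median -0.13, 0 at an unadjusted p under 0.05) and 8 of 9 in knockout bulb (median -0.10, 1). All 9 oligodendrocyte genes were above 0 in knockout hippocampus (median 0.26, 4) and 7 of 9 below it in bulb (median -0.09, 2). Of 10 cerebellar and brainstem genes, 9 were above 0 in knockout hippocampus (median 0.13, 2) and 3 in bulb (median -0.03, 0). Microglia and choroid plexus genes had medians of 0.02 and 0.09 in hippocampus, with 1 gene each at an unadjusted p under 0.05, and 0.00094 and -0.05 in bulb, with 1 and 0. The part of these cells in the members' values was not tested. Mean choroid plexus level varied most between arrays of a group, from 6.54 to 7.21 in wild-type hippocampus against 6.63 to 6.74 in wild-type bulb. Microglial genes lay at 7.85 to 7.97 in wild-type hippocampus and 7.75 to 7.84 in wild-type bulb, and endothelial genes at 7.90 to 8.17 and 8.19 to 8.35.

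Glra2 lies on chromosome X in the same stretch as Mid1, which fell by 2.17 in the knockout hippocampus and fell by 2.41 in the knockout bulb (limma adjusted p = 7.26e-09 and 1.67e-09). In RefSeq order, 16 measured genes lie between Glra2 and Mid1, and 0 of these passed the threshold between genotypes in either tissue. Of all genes, 0.256% passed in hippocampus and 0.411% in bulb, so a count of 0 is near those shares. Whether the differences of Glra2 and Mid1 are linked was not tested.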
